A study of Mus musculus with 6 samples.

Results

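The peroxisome proliferator-activated receptors (PPARs) and a set of their classic target genes were followed in mouse islets of Langerhans, the endocrine cell clusters of the pancreas, treated in culture with CMPF or with vehicle. The 9 genes were taken by name, with earlier results of these data already known. They are the receptors Ppara, Ppard and Pparg, their partner Rxra, and the targets Angptl4, Acot1, Acot2, Vnn1 and Creb3l3. All 9 were measured, among 18193 genes on the array. The islets came from male mice of the outbred CD1 stock aged 8 weeks and were cultured overnight before treatment. The first group of 3 arrays had islets given 200 uM CMPF, a furan fatty acid metabolite, for 24 hours. The other 3 arrays had islets given vehicle, 0.1% ethanol, for the same time. The labels name no allele or transgene in either group. They also do not state whether the numbered samples came from separate animals, so a p-value here sets a difference against a spread that may be only technical.

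PPARs are nuclear receptors that bind fatty acids and their derivatives. Each pairs with a retinoid X receptor, such as the product of Rxra, and the pair binds DNA at repeats of a short hexamer near genes of lipid use and storage. PPAR-alpha is known for inducing fatty acid oxidation in liver, PPAR-delta acts in many tissues, and PPAR-gamma is the receptor that drives fat cell formation. Fatty acids are fuels and signals for islet cells too.

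Values below are log2 signals from the authors' RMA processing, and each difference is CMPF minus vehicle in log2 units. Each gene is represented by its probe set, a group of short probes read together, with the highest mean over the 6 arrays. A signal also reflects how well the probes bind, so it is not compared between genes. The median signal of all genes was 6.42 and the lower quartile 4.53, and these serve only to say how bright a reading was. No detection call comes with the values, so whether a dim gene was expressed is unknown. Array medians over all probe sets lay between 5.07 and 5.14, the lowest correlation between any 2 arrays was 0.989, and precision is limited by having 3 arrays a group.

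The genes of the receptors and their partner varied little over the 6 arrays, by at most 0.51 log2 units, and without a shift between CMPF and vehicle that passed the test. Ppara, on probe set 1449051_at, read 4.88, 4.68 and 5.19 in the CMPF islets, against 5.04, 4.83 and 4.99 in the vehicle islets. Ppard, on probe set 1439797_at, read 6.06, 6.51 and 6.30 in the CMPF islets, against 6.23, 6.39 and 6.38 in the vehicle islets. Pparg, on probe set 1420715_a_at, read 7.22, 6.84 and 7.0045 in the CMPF islets, against 7.12, 7.04 and 7.07 in the vehicle islets. For each receptor the values of the CMPF islets lay on both sides of those of the vehicle islets, so the groups overlapped. Pparg was brighter than the median gene reading, Ppara and Ppard were dimmer. Rxra, the shared partner of the receptors, on probe set 1425762_a_at, read 7.48, 7.38 and 7.22 in the CMPF islets, against 7.25, 7.42 and 7.44 in the vehicle islets.

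The differences of the receptor genes were small beside their errors. Ppara differed by -0.04 (SE 0.142), with a 95% interval from -0.37 to 0.29. The interval ran from -0.34 to 0.26 for Ppard, whose difference was -0.04 (SE 0.129). Pparg differed by -0.05 (SE 0.112, interval -0.32 to 0.21). Rxra differed by -0.01 (SE 0.104), and its interval from -0.26 to 0.23 was the narrowest of the receptor genes. The CMPF array was the lower of its pair in 2 of 3 pairs for each of these 4 genes, where a pair is the CMPF and vehicle array that the labels give the same number.

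**Figure D1:**
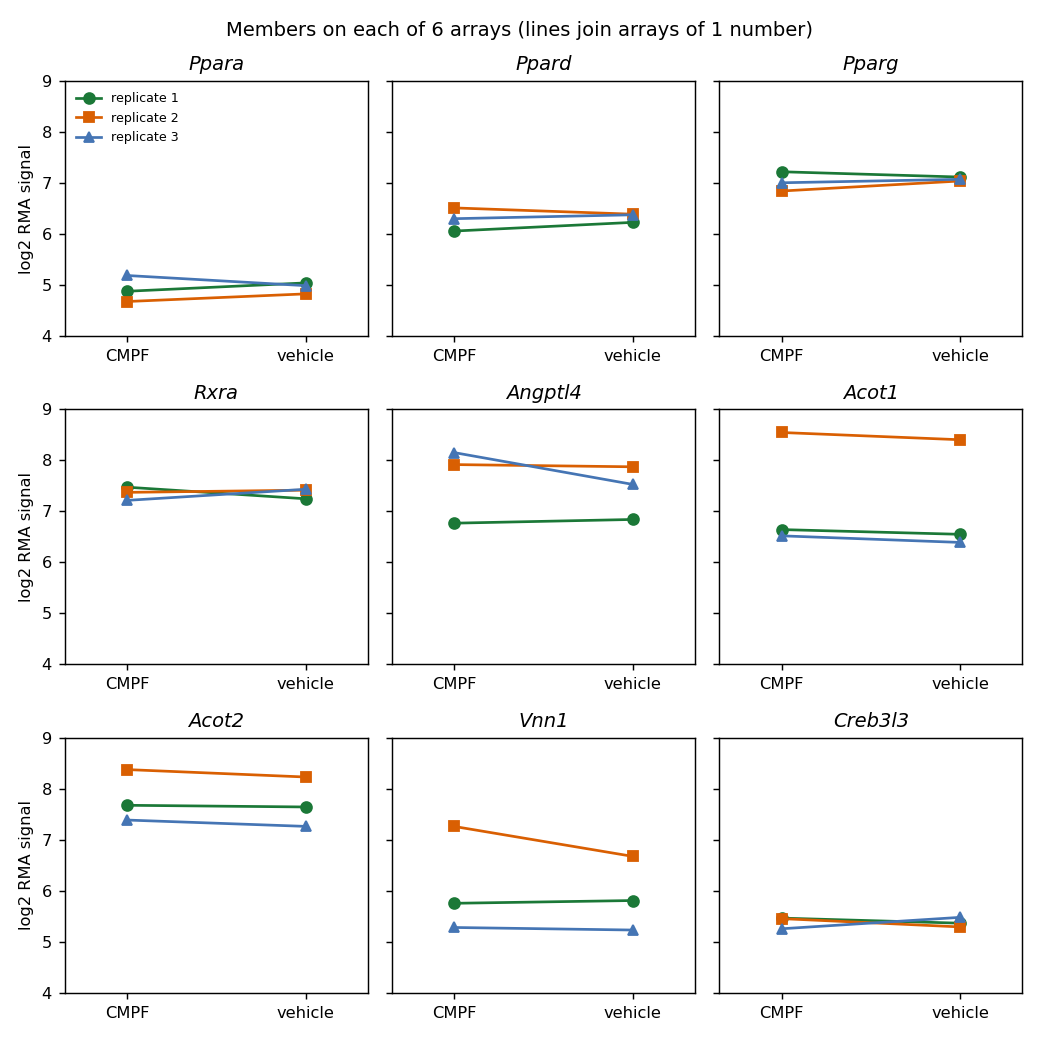
Log2 RMA signal of the 9 genes on the 6 arrays, with CMPF islets on the left and vehicle islets on the right of each panel. Lines join arrays that carry the same replicate number. The 4 receptor genes and Creb3l3 lie close together on all arrays, and Acot1, Acot2 and Vnn1 read highest on both arrays numbered 2.

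The other single-gene probe sets of the receptor genes are dimmer by the way the main set was chosen, and not all had its sign. A second Ppara set, 1457721_at, differed by 0.20 (SE 0.138), and the third, 1439675_at, by -0.05 (SE 0.087), around the -0.04 of the main set. The second Ppard set, 1425703_at, read 5.08, 5.11 and 5.17 in the CMPF islets, against 5.27, 5.19 and 5.18 in the vehicle islets. All 3 CMPF values lay below all 3 vehicle values, by a mean of -0.10 (SE 0.087), and this difference was not called. The set 1454773_at of Rxra was higher with CMPF in all 3 pairs (0.10, SE 0.102), and the dim set 1430497_at was lower in all 3 (-0.22, SE 0.123), so the sets of Rxra disagreed in direction. A further set, listed with both Ppard and 1810013A23Rik, differed by 0.04 (SE 0.146) and cannot be assigned to either gene. Of the 19 probe sets listed with a member, 17 named a single gene, and 0 of 19 passed the threshold when the test ran over all probe sets.

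No gene of the receptor and target set was called with CMPF. At an adjusted p under 0.05 (limma, p-values adjusted by the Benjamini-Hochberg method across the 18193 genes), the comparison called 0 of the 9 genes and 0% of all genes, with an adjusted p of 0.99995 for each of the 9. At an unadjusted p under 0.05 the same fit listed 205 genes, and a fit with the replicate block listed 692 and also called 0. The median difference of the 9 genes was 0.01, beside 0.0018 for all genes, with 5 of the 9 positive and 4 negative. The CMPF array was higher in all 3 pairs for 2 of the 9, Acot1 and Acot2, where 11.8% of all genes were. It was lower in all 3 pairs for 0 of the 9, where 11.1% of all genes were. The groups were free of overlap for 0 of the 9, where 2.41% of all genes were higher and 2.11% lower without overlap.

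**Figure D2:**
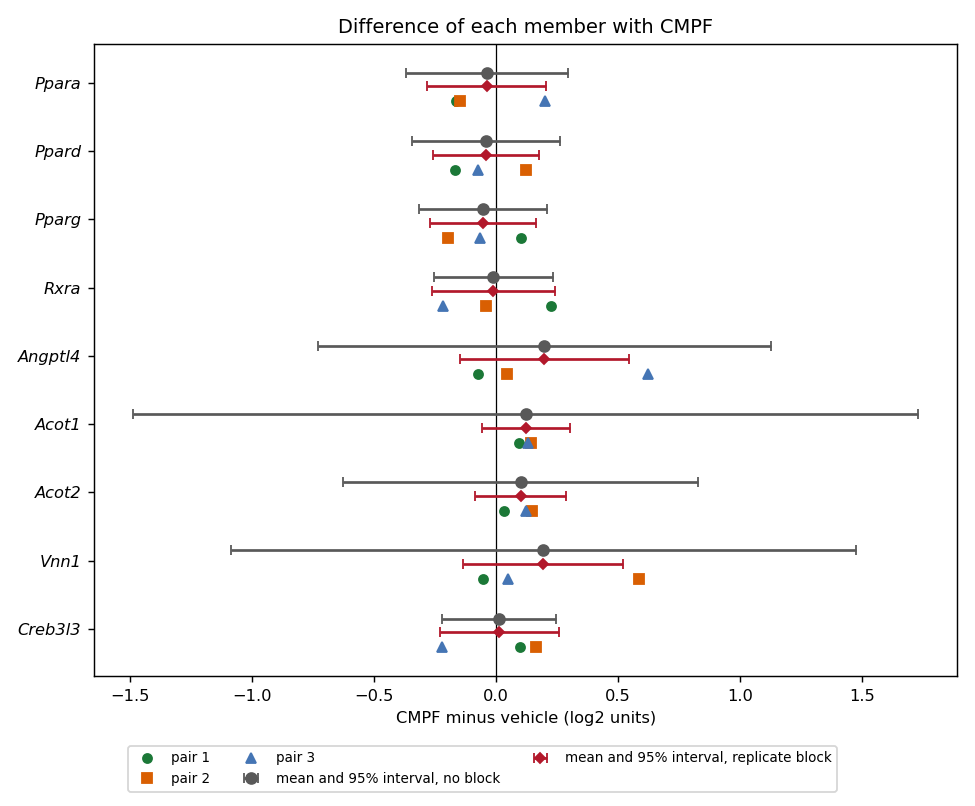
CMPF minus vehicle difference of each gene in log2 units. Grey circles and bars give the mean and 95% interval of the fit without a block, red diamonds and bars those with the replicate block, and coloured symbols the 3 pairs. All intervals include 0, and those of Acot1, Acot2, Vnn1 and Angptl4 are much narrower with the block.

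Angptl4 encodes a secreted inhibitor of lipoprotein lipase and is induced through all PPAR types. Its main set, 1417130_s_at, read 6.77, 7.92 and 8.15 in the CMPF islets, against 6.84, 7.88 and 7.53 in the vehicle islets. Both arrays numbered 1 were the lowest of their group, and the groups overlapped. The difference was 0.20 (SE 0.396, 95% interval -0.73 to 1.13). Pair 3 stood at 0.62, while pairs 1 and 2 stood at -0.07 and 0.04. Without CMPF replicate 3 the difference was -0.07, and without replicate 3 in both groups it was -0.01. With the replicate block the interval ran from -0.15 to 0.55. The other Angptl4 set, 1453410_at, read between 2.505 and 2.55 on the 6 arrays, near the bottom of the scale.

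Acot1 and Acot2 encode acyl-CoA thioesterases, which release free fatty acids from their CoA esters, Acot1 in the cytosol and Acot2 in mitochondria. Both are induced through PPAR-alpha in mouse liver. Acot1, on 1449065_at, read 6.64, 8.55 and 6.52 in the CMPF islets, against 6.55, 8.41 and 6.39 in the vehicle islets. Acot2, on 1439478_at, read 7.68, 8.38 and 7.39 in the CMPF islets, against 7.65, 8.23 and 7.27 in the vehicle islets. For both genes the array numbered 2 was the highest of its group, and the difference between CMPF and vehicle was small beside the difference between numbers. Acot1 differed with CMPF by 0.12 (SE 0.686, 95% interval -1.49 to 1.73), with pair differences of 0.09, 0.14 and 0.13. Acot2 differed by 0.10 (SE 0.311, 95% interval -0.63 to 0.83), with pair differences of 0.03, 0.15 and 0.12. The replicate block lowered the standard errors to 0.074 for Acot1 and 0.077 for Acot2, and its intervals ran from -0.06 to 0.30 and from -0.09 to 0.29. Neither gene was called with the block (adjusted p = 0.979 for both).

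The other sets of these genes bear on whether the readings are separate, since Acot1 and Acot2 are close relatives whose transcripts a probe may share. The set 1422997_s_at is listed with both genes. It read 6.89, 8.09 and 6.68 in the CMPF islets, against 6.58, 8.13 and 6.40 in the vehicle islets, also highest on both arrays numbered 2. Its pair differences of 0.30, -0.05 and 0.28 did not share a sign. The second set of Acot2 alone, 1422996_at, read 5.81, 6.40 and 5.65 in the CMPF islets, against 5.61, 6.32 and 5.49 in the vehicle islets, and was higher with CMPF in all 3 pairs (0.15, SE 0.261). The readings of Acot1 and Acot2 are therefore uncertain as separate values, and the pair counts of the 2 genes are not independent.

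**Figure D3:**
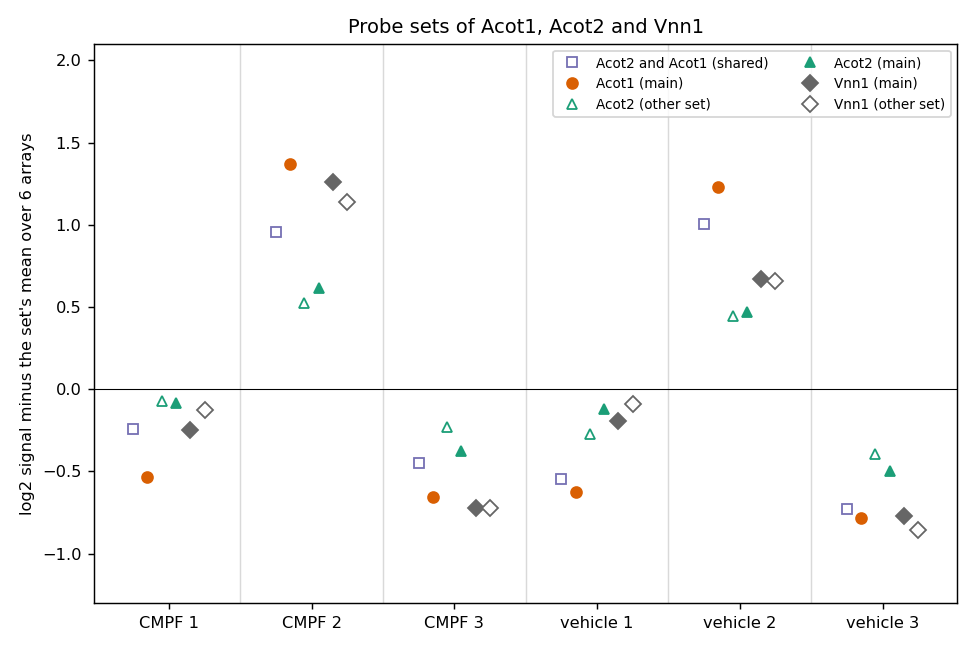
Log2 signal of each probe set of Acot1, Acot2 and Vnn1 minus that set's mean over the 6 arrays, with CMPF islets on the left and vehicle islets on the right. Filled symbols are main sets and open symbols other sets, including the set shared by Acot1 and Acot2. All 6 sets lie above their mean on CMPF 2 and vehicle 2 and below it on the other 4 arrays.

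Acot2 and Acot1 are neighbours with 0 other annotated genes between them in the RefSeq annotation of GRCm38.p6. Because these genes moved together across the arrays, the 250 bases before the start of each are shown, 5′ to 3′ on the plus strand, from RefSeq on GRCm38.p6. Acot2 lies at chr12:83987611-83987860 and Acot1 at chr12:84009252-84009501. The hexamer AGGTCA, which PPAR and its partner bind as a repeat, and its reverse TGACCT would be in capitals, and neither sequence holds any.
Acot1: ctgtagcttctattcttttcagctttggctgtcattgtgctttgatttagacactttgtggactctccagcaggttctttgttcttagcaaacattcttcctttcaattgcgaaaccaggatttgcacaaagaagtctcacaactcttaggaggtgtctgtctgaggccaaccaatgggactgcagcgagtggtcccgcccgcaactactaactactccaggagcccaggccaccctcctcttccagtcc
Acot2: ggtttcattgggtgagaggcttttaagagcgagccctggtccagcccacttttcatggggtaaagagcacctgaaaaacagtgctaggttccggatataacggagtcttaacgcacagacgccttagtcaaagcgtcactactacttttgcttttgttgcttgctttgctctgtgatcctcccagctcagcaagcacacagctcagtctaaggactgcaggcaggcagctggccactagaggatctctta

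The same hexamer was looked for in the promoter windows of all members, from 250 bases before to 50 after each start, on both strands. Of the 9 members 7 matched a promoter entry, with 11 entries in all, while Angptl4 and Vnn1 had none in the table used here. The hexamer was in 4 of the 11 windows, belonging to 3 genes: 2 of 3 windows of Pparg, 1 of 2 of Rxra, which held it at 2 places, and 1 of 2 of Creb3l3. This stands beside 16.3% of all 32851 windows. The direct repeat AGGTCANAGGTCA, in which N is any base and which contains the hexamer, was in 0 of the 11 and in 0.0396% of all windows. The matches are shown because they lie at receptor genes and at Creb3l3, 5′ to 3′ on the gene's strand with the hexamer in capitals, from chr6:115361104-115361133 and chr6:115362328-115362357 (Pparg, plus strand), chr2:27709193-27709222 and chr2:27709232-27709261 (Rxra, plus strand) and chr10:81092776-81092805 (Creb3l3, minus strand). A match of letters is a description and does not show binding.
Pparg, first promoter: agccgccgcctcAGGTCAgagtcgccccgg
Pparg, second promoter: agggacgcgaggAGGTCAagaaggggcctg
Rxra, upstream match: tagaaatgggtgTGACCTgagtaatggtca
Rxra, downstream match in the same promoter: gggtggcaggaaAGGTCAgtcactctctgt
Creb3l3: taagtaggggagAGGTCAcacagacccgac

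Vnn1 encodes pantetheinase, which makes cysteamine and pantothenate from pantetheine and is a PPAR-alpha target in liver. Its main set, 1418486_at, read 5.76, 7.26 and 5.28 in the CMPF islets, against 5.81, 6.68 and 5.23 in the vehicle islets. The arrays numbered 2 were the highest of both groups and those numbered 3 the lowest. The difference with CMPF was 0.19 (SE 0.546, 95% interval -1.09 to 1.47), with pair differences of -0.05, 0.59 and 0.05. It was -0.0021 without replicate 2 in both groups, and with the replicate block its interval ran from -0.13 to 0.52. The second set, 1447845_s_at, read 4.26, 5.52 and 3.66 in the CMPF islets, against 4.29, 5.04 and 3.53 in the vehicle islets, which is the same order of arrays. Its pair differences were -0.03, 0.48 and 0.13.

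Creb3l3 encodes CREBH, a membrane-bound transcription factor of liver and intestine that is released to the nucleus on fasting or stress and acts with PPAR-alpha on lipid genes. Its set, 1424688_at, read 5.47, 5.46 and 5.26 in the CMPF islets, against 5.37, 5.29 and 5.48 in the vehicle islets. The difference was 0.01 (SE 0.100, 95% interval -0.22 to 0.25), with pairs 1 and 2 positive and pair 3 negative. The range over all arrays, 0.22, was the smallest of the 9 genes.

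Each gene of the set spread more between replicate numbers than between CMPF and vehicle, where a range over 3 means was set against a difference of 2. Only for Acot1, Acot2, Vnn1 and Angptl4 was the spread between numbers wide. Creb3l3 and the receptor genes varied little in either way. The mean of the 2 arrays of a number was 6.60, 8.48 and 6.46 for Acot1 at numbers 1, 2 and 3, a 4.06-fold span between the lowest and highest of the 3 means. The means were 7.66, 8.31 and 7.33 for Acot2, a 1.97-fold span. Vnn1 averaged 5.78, 6.97 and 5.26, a 3.28-fold span, and Angptl4 averaged 6.81, 7.90 and 7.84, a 2.13-fold span. Spans at least as wide as that of Acot1 were seen in 40 of 18193 genes, Acot1 included. The spans of the receptor genes and Creb3l3 lay between 0.05 and 0.34 log2 units, around the median span of all genes, 0.21.

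A test of the replicate number, chosen after these values had been seen, was run as limma's moderated F test in the fit with the replicate block. It called 4 of the 9 genes, beside 2.64% of all genes. The adjusted p was 0.0072 for Acot1, 0.0176 for Acot2, 0.0176 for Vnn1 and 0.0465 for Angptl4. It was 0.286 for Ppara, 0.272 for Ppard, 0.418 for Pparg, 0.923 for Rxra and 0.954 for Creb3l3. Without CMPF replicate 2 or without vehicle replicate 2, the test called 0 of the 9 and 0 of all genes, and then the adjusted p of Acot1 was 0.0566 and 0.0790. Angptl4 was not called without CMPF replicate 1 (adjusted p = 0.206) or without vehicle replicate 1 (adjusted p = 0.0626). Each fit with 1 array left out kept 1 residual degree of freedom.

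**Figure D4:**
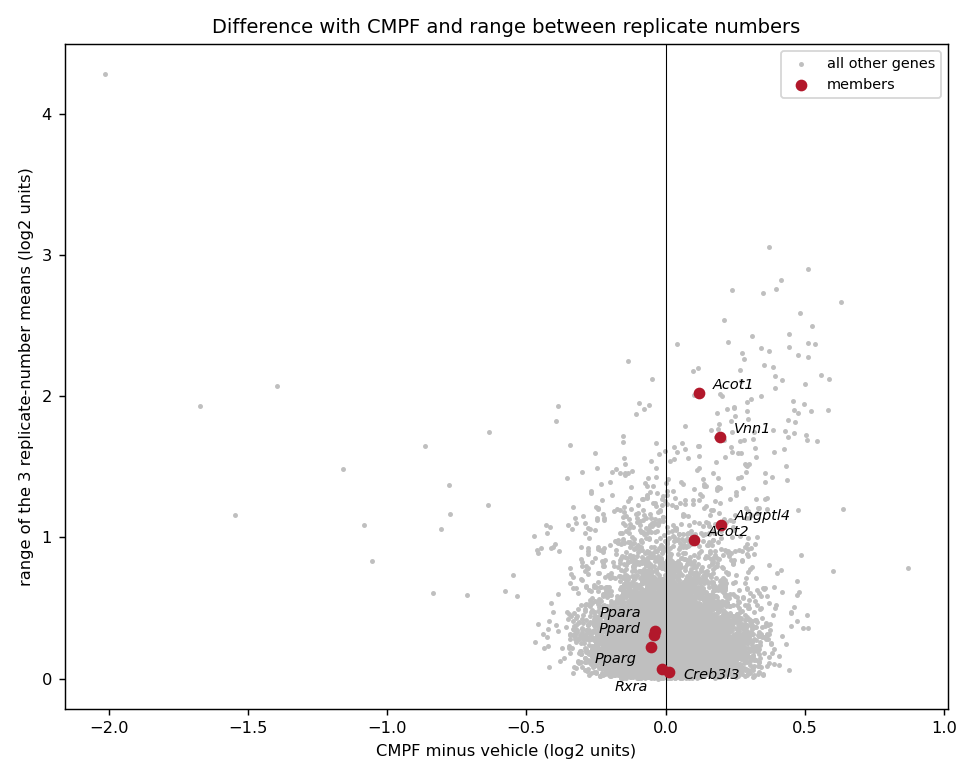
Each point is a gene, with its CMPF minus vehicle difference (log2 units) on the horizontal axis and the range of its 3 replicate-number means (log2 units) on the vertical axis. Members are red. Acot1, Vnn1, Angptl4 and Acot2 lie high, at ranges from 0.98 to 2.02, with differences between 0.10 and 0.20.

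Markers of enzyme-secreting acinar cells, which surround islets in the pancreas, also followed the replicate number, and the replicate test called 5 of 7. The log2 of their summed signal, over the 7 measured markers, was 15.81, 16.37 and 15.45 in the CMPF islets, against 15.58, 16.28 and 14.74 in the vehicle islets. All 7 had a positive difference, 5 of 7 were higher with CMPF in all 3 pairs (11.8% of all genes were), and the median was 0.43. Acot1, Acot2 and Vnn1 had the same order of numbers, with number 2 highest and number 3 lowest, and Angptl4 did not. With the mean of the acinar markers as a covariate, which left 1 residual degree of freedom, the test of the replicate number kept Acot1 and Angptl4 (adjusted p = 0.0238 for both) and no longer called Acot2 (0.367) or Vnn1 (0.153). With that covariate in the comparison of CMPF with vehicle, the differences turned to -0.38 for Acot1, -0.14 for Acot2 and -0.21 for Vnn1, none of them called. Some markers of other cell types, named here after their values were seen, followed the number too. The duct marker Krt19 averaged 9.29, 10.81 and 9.33 at numbers 1, 2 and 3 (adjusted p = 0.0199), with number 2 high as for Acot1. Krt19 was the only 1 of 5 duct markers called. Of the 5, 4 were highest at number 2, while Krt7 was lowest there (11.82, 11.63 and 11.95). The log2 summed duct signal ran from 12.93 to 13.10 in the CMPF islets and from 12.96 to 13.15 in the vehicle islets. Epcam (mean 11.85) and Krt7 (mean 11.80) were the brightest of the 5 and weigh most in that sum. The spans between numbers were 1.52 for Krt19, 0.66 for Cftr and 0.56 for Sox9, against 0.11 for Epcam and 0.32 for Krt7. All 7 endothelial markers were lowest at number 1, as Angptl4 was, and 2 of 7 were called, Pecam1 (4.56, 5.44 and 5.47, adjusted p = 0.0403) and Tek (adjusted p = 0.0282). The stellate marker Acta2, the only 1 of 7 stellate markers called, was highest at number 3 (adjusted p = 0.0309). In whole islets, fewer cells of a type and less RNA per cell cannot be told apart.

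The islet label was checked on its hormone genes, chosen for that purpose. Ins2 (insulin) read between 14.61 and 14.73 and Gcg (glucagon) between 14.30 and 14.45 over the 6 arrays. These readings lay at or near 14.73, the highest of any non-control probe set. The replicate test called 0 of 5 beta cell markers. Slc2a2, a beta cell marker named after its values were seen, was not called (adjusted p = 0.0642). It averaged 11.18, 10.29 and 9.85 at numbers 1, 2 and 3. Run on genes above the median reading alone, the test gave it an adjusted p of 0.0313 and called 12.6% of those genes. Markers of fat cells, a cell type known for Pparg, were dim, with 4 of 4 measured markers averaging below the median reading. Adipoq read 3.27, 3.12 and 2.97 in the CMPF islets, against 3.35, 3.15 and 3.06 in the vehicle islets. Of the 4 fat cell markers 2, Adipoq and Lep, lay below the lower quartile. The other 2, Retn (mean 5.91) and Cidea (mean 5.84), lay above it. Both were higher with CMPF in all 3 pairs (11.8% of all genes were), while Adipoq was lower in all 3 (11.1% were). The replicate test called Cidea (adjusted p = 0.0273), with number 2 highest. The log2 summed signal of the 4 ran from 7.06 to 7.39 in the CMPF islets and from 6.95 to 7.14 in the vehicle islets. Of 5 hepatocyte markers 2, Apoc3 and Cyp2e1, also lay below the lower quartile. Of the other 3, Ttr averaged 13.54, Apoa1 averaged 6.34, and Alb read 6.22, 5.80 and 5.66 in the CMPF islets, against 8.49, 5.62 and 6.17 in the vehicle islets. All 7 stellate cell markers had a negative mean difference but were higher with CMPF in pair 3, so 0 of 7 were lower in all 3 pairs, and the log2 of their summed signal ran from 12.47 to 13.78 in the CMPF islets and from 12.94 to 13.53 in the vehicle islets. Median differences were 0.04 for duct, -0.23 for stellate, 0.07 for endothelial, 0.0083 for macrophage, 0.08 for fat cell, -0.16 for hepatocyte, -0.01 for beta, 0.01 for alpha and -0.0098 for delta cell markers. The part of any cell type in the members' values was not tested. The acinar covariate cannot decide it for acinar cells, because the acinar markers followed the replicate number themselves.

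Across the wider pathway the differences with CMPF were again small, and limma called 0 genes of any list. The pair counts below stand beside 11.8% of all genes higher and 11.1% lower in all 3 pairs, and the genes without overlap beside 2.41% higher and 2.11% lower. Among partners and coregulators of the receptors, 10 of 12 had a negative difference, 3 were lower in all 3 pairs and 0 higher, with a median of -0.05. Ep300, a histone acetyltransferase that PPARs recruit, read 8.29, 8.25 and 8.41 in the CMPF islets, against 8.67, 8.46 and 8.46 in the vehicle islets, without overlap (-0.21, SE 0.098). Its relative Crebbp differed by -0.17 (SE 0.107) and the corepressor Nrip1 by -0.15 (SE 0.139).

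Among mitochondrial oxidation targets, 4 of 10 were higher in all 3 pairs and 0 lower, with a median of 0.11. Acadvl, the dehydrogenase of very long acyl chains, read 9.31, 9.38 and 9.28 in the CMPF islets, against 9.20, 9.19 and 9.19 in the vehicle islets. Its groups did not overlap, by a mean of 0.13 (SE 0.079). Ucp3, a mitochondrial carrier, also showed no overlap (0.25, SE 0.107), and Acadm, the medium-chain dehydrogenase, differed by 0.15 (SE 0.137). Of 8 peroxisome and omega oxidation targets 4 were higher and 1 lower in all 3 pairs, with a median of 0.07. The examples with the smallest p were Cyp4a14, a fatty acid omega-hydroxylase below the lower quartile (0.22, SE 0.165), Ehhadh, the peroxisomal bifunctional enzyme (0.14, SE 0.159), and Hsd17b4 of the same organelle (-0.17, SE 0.1996).

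Lipid handling targets split: 4 of 12 were higher and 2 lower in all 3 pairs, with a median of 0.07. Slc27a1, a fatty acid transport protein, read 5.75, 5.37 and 5.76 in the CMPF islets, against 5.92, 5.89 and 6.03 in the vehicle islets. These groups did not overlap, by a mean of -0.32 (SE 0.125), and the gene was not called after adjustment. The lipid droplet proteins Plin4 and Plin5 both differed by 0.24 (SE 0.122 and 0.130). Of the 3 secreted targets, Apoa5 differed by 0.22 (SE 0.123), Fgf21 by 0.08 (SE 0.178) and Adipoq by -0.06 (SE 0.117).

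**Figure D5:**
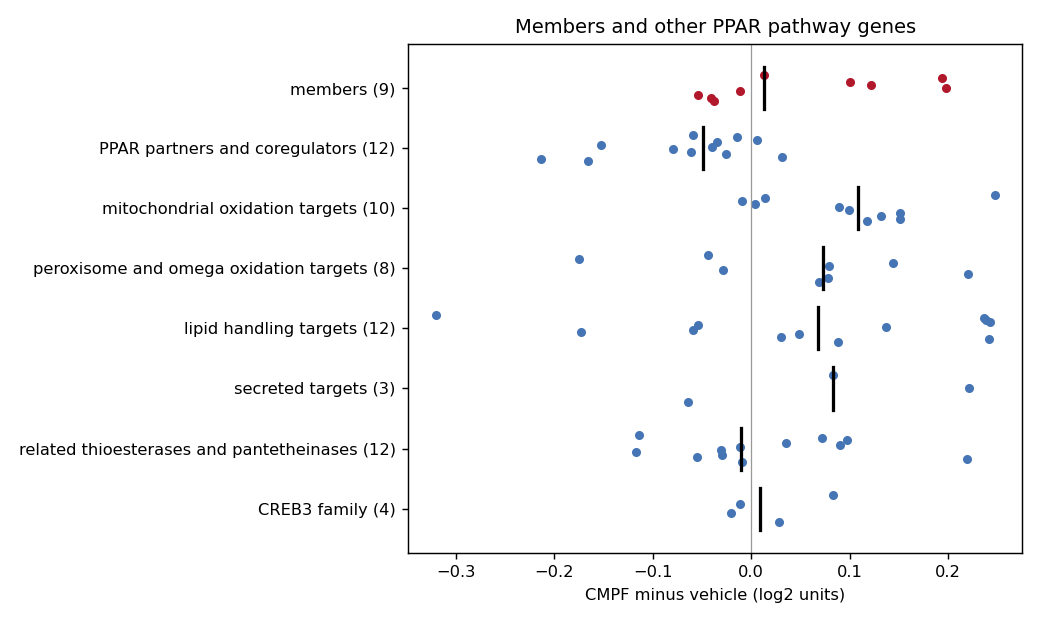
CMPF minus vehicle difference (log2 units) of each gene, by list, with the number of measured genes in brackets and a black bar at the list's median. Points of a list are spread vertically for visibility only. Medians lie between -0.05 and 0.11.

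Relatives of the target genes served as a comparison. Of 12 related thioesterases and pantetheinases 2 were higher and 1 lower in all 3 pairs, with a median of -0.01. Acot12 differed by 0.22 (SE 0.166), Acot4 by -0.12 (SE 0.108) and Vnn3, the neighbour in kind of Vnn1, by -0.11 (SE 0.131). The test of the replicate number called 0 of these 12, but number 2 had the highest mean for 8 of them, as for 6209 of all 18193 genes. Acot9, chosen after its values were seen, came closest to the threshold: it averaged 8.41, 9.23 and 8.44 at numbers 1, 2 and 3 (adjusted p = 0.0556). Its adjusted p was 0.0232 when the test ran on genes above the median reading alone, a run that called 12.6% of those genes. Acot7 also had number 2 highest, with a span of 0.77 (adjusted p = 0.111), and the adjusted p was 0.739 for Acot4 and 0.404 for Vnn3. For Acot12 number 2 was the lowest, with means of 5.54, 5.27 and 5.73 (adjusted p = 0.124). Of the 4 other CREB3 family genes, 0 were higher or lower in all 3 pairs, with a median of 0.0085. The 3 with the smallest p were Creb3l4 (0.08, SE 0.124), Creb3 (0.03, SE 0.141) and Creb3l1 (-0.02, SE 0.189).

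The replicate test called a few more PPAR targets of the wider lists. Plin2, a lipid droplet coat, read 9.39, 10.44 and 10.11 in the CMPF islets, against 9.23, 10.31 and 9.67 in the vehicle islets (adjusted p = 0.0222). Cpt1a, the carnitine transferase at the entry of fatty acids to mitochondria, read 8.31, 9.04 and 8.75 in the CMPF islets, against 8.17, 8.92 and 8.55 in the vehicle islets (adjusted p = 0.0318). Both were higher on the arrays numbered 2 and 3 than on those numbered 1, the order also seen for Angptl4. Cidea, another lipid droplet protein, was called too (adjusted p = 0.0273), with number 2 highest in both groups. The test over all genes called 1 of 10 mitochondrial oxidation targets, 0 of 8 peroxisome and omega oxidation targets and 2 of 12 lipid handling targets. It called 0 of 12 partners and coregulators and 0 of 3 secreted targets, beside 2.64% of all genes. Run on the genes above the median reading alone, the test called 12.6% of them. That run also called Acadl (adjusted p = 0.0206), Ehhadh (0.0434), Hsd17b4 (0.0355) and Fabp4 (0.0411), which the test over all genes did not. The genes named in this paragraph were chosen after their values were seen.

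Genes with the pattern most like the widest-ranging members were listed as a description. Over the 6 arrays, which share 3 numbers, and among genes above the median reading, the highest Pearson correlations with Acot1 were 0.999 for Chpt1, a phosphatidylcholine synthesis enzyme, and 0.997 for Sft2d2. Chpt1 read 7.46, 8.08 and 7.45 in the CMPF islets, against 7.42, 8.05 and 7.39 in the vehicle islets. With Vnn1 they were 0.999 for Dcxr, a xylulose reductase, and 0.998 for both Myrf, a membrane-bound transcription factor, and Cldn23, a claudin. All of these genes read highest on the arrays numbered 2 in both groups, which their choice by correlation with Acot1 or Vnn1 largely fixed.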

How the data were processed

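RNA from mouse islets was measured on Affymetrix 3' expression arrays, 3 with CMPF and 3 with vehicle. The deposited values are log2 signals, made by the authors with RMA, and Affymetrix Expression Console 1.1 is the software that the submitters' processing notes name. Probe sets were named from the platform annotation: 34945 had 1 gene symbol, 932 several and 9160 none, and 64 control sets were left out. A gene with several such sets (18193 genes in all) was represented by the brightest on average over the 6 arrays. Limma 3.58.1 in R 4.3.3 compared CMPF with vehicle, with Benjamini-Hochberg adjustment over all genes. The labels give both groups replicate numbers 1 to 3. Deviations from the group means correlated at 0.488 to 0.638 between arrays of the same number and at -0.56 to 0.09 between others, so by the rule used the numbers pair the arrays. This pairing comes from the data, not from a stated shared source.

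Each list named its 3 genes with the smallest unadjusted p, and the 2 widest-ranging members the 3 most correlated genes, of which 1 is not reported here. Marker lists covered acinar, duct, stellate, endothelial, macrophage, fat, liver, beta, alpha and delta cells. Members and lists were chosen with earlier results of these data known. The fit was tested on simulated data. Alternatives were probe set choice, filters, second normalization, array weights, the replicate block, the acinar covariate and arrays left out. Genes on a list without a named probe set were not analysed here.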

Additional observations from a re-analysis of the deposited data

How the results depend on the processing

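No setting brought any of the 9 genes past the threshold, the replicate block included (0 of the 9, and 0 of all genes), and their lowest adjusted p over all settings was 0.978. Directions of such small differences were not stable. Creb3l3 turned to -0.0088 with a second quantile normalization and to -0.019 with array weights, and Ppara to 0.038 with the mean of its probe sets. With the acinar marker mean as covariate Ppara turned to 0.030, Acot1 to -0.38, Acot2 to -0.14 and Vnn1 to -0.21; the cause was not tested. Among genes above the median reading, which leaves out 4 of the 9, the median difference of the members was 0.10. With single arrays or pairs left out, differences ranged from -0.17 to 0.080 for Ppara, -0.15 to 0.075 for Ppard, -0.15 to 0.036 for Pparg, -0.13 to 0.092 for Rxra, -0.088 to 0.62 for Angptl4, -0.53 to 0.77 for Acot1, -0.18 to 0.36 for Acot2, -0.39 to 0.60 for Vnn1 and -0.062 to 0.13 for Creb3l3, and the members' median from -0.033 to 0.089. The replicate number test, added after seeing the data, called 0 to 4 of the 9 genes with 1 array left out. It called 2 with the acinar covariate, with 260 genes in all, and 1147 of 9097 genes among those above the median reading, against 481 of all 18193. Without either of the arrays numbered 2 it called 0 genes. Each fit with 1 array left out kept 1 residual degree of freedom, so the loss of calls cannot show which arrays the test rests on.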
